A study of Mus musculus with 2 samples.

Results

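The YAP and TEAD target genes described here are a panel of 10 widely used readouts of the Hippo pathway: Cyr61, Ctgf, Ankrd1, Amotl1, Amotl2, Ajuba, Lats2, Ptpn14, Crim1 and Wwc1. They were found by symbol in a table of messenger RNA levels from mouse mammary basal cells, which listed 9 of the 10 among 15239 genes. Ankrd1, a cardiac ankyrin repeat protein gene, was not listed and has no value here. The study held 2 libraries, 1 from cells with a scrambled short hairpin RNA (Scramble control) and 1 from cells with a hairpin against Cdk14 (Cdk14-sh), a kinase known for its membrane-bound partner cyclin Y and its role in Wnt receptor signalling. Both are labelled as normal mammary gland, and both groups received a hairpin. The sources used here do not give the number of Cdk14 hairpins, the strain, the age or the culture of the cells. The labels disagree on the material, since the design text names the human line MDA-MB-231 and the extraction protocol names retinas. The table's identifiers are mouse Ensembl genes, and the basal markers Krt5 (129 FPKM in Scramble control and 242 in Cdk14-sh), Krt14 (1199 and 994) and Trp63 (8.42 and 23.9) were present in both libraries. Of all 12 basal markers examined, 8 were lower in Cdk14-sh and 4 higher, with Actg2 (120 and 3.66 FPKM) the lowest in ratio. Luminal markers such as Krt8 (456 and 223 FPKM) and Krt18 (382 and 106 FPKM) were present as well.

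The Hippo pathway is a kinase cascade in which the MST kinases (Stk3 and Stk4), with Sav1, activate the LATS kinases, which phosphorylate the coactivators YAP (Yap1) and TAZ (Wwtr1) and hold them out of the nucleus. When the kinases are inactive, YAP and TAZ enter the nucleus, bind the TEAD transcription factors and raise the transcription of target genes. Some of these targets encode secreted proteins of the matrix, and others encode proteins that restrain YAP itself and so form a negative feedback. In mammary epithelium the pathway responds to cell shape, tension and attachment, and TAZ is known for promoting basal features.

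Because these genes are known as TEAD targets, their promoters are shown first. RefSeq promoter windows (GRCm38.p6, from 250 bases before to 50 bases after an annotated start) were found for 9 of the 10 genes; Ctgf had none in the reference table used. The TEAD hexamer GGAATG, read on both strands (CATTCC on the other), occurred in the window of 7 of those 9 genes, against 16.6% of all 27025 genes with a window. Of the 8 that were also in the expression table, 6 had it (Cyr61, Amotl2, Ajuba, Ptpn14, Crim1 and Lats2), and Amotl1 and Wwc1 did not. The sequences below are the 250 bases before the start of the listed members with a match there, written in the direction of transcription with the hexamer in capitals. Ankrd1, with 2 matches 210 and 123 bases before its start, is left out because it has no expression value. The others were chosen because they carry the feature by which these genes are known and include members with higher, lower and nearly equal levels in Cdk14-sh.
Cyr61, chr3:145649986-145650235, minus strand: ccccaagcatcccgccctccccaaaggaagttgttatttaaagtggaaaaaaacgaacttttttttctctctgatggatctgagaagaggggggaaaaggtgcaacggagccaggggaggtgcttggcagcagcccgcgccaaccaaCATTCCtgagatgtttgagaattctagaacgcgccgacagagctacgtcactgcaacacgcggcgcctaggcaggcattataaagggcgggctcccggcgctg
Amotl2, chr9:102717554-102717803, plus strand: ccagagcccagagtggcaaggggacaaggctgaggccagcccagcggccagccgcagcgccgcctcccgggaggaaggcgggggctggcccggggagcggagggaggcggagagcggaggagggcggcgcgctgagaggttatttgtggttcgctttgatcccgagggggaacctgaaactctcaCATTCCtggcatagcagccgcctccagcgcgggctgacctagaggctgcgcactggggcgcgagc
Ajuba, chr14:54577662-54577911, minus strand: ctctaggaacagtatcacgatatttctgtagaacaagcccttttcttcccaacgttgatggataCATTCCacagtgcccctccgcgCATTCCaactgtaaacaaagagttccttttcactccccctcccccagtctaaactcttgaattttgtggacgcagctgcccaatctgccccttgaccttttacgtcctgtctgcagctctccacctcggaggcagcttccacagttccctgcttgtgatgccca
Ptpn14, chr1:189728018-189728267, plus strand: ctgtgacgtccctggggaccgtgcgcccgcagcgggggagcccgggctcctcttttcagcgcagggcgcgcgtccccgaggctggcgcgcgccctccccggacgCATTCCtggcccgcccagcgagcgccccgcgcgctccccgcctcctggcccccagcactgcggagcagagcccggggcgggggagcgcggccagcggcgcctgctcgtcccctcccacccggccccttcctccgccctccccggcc
Crim1, chr17:78199998-78200247, plus strand: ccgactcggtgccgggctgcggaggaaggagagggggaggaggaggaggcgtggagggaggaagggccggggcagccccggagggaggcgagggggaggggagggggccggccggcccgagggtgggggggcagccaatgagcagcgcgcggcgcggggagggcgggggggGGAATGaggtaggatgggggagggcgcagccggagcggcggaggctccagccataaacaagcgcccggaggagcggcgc
The hexamer began 103 bases before the start in Cyr61, 65 in Amotl2, 146 in Ptpn14 and 79 in Crim1. Ajuba had 2 matches, 186 and 164 bases before its start. In Lats2 the match lay 5 bases into the transcript at 1 of its 2 annotated starts. The AP-1 motif TGANTCA and the CArG box bound by SRF, both searched on both strands, occurred in none of the 9 genes' windows, against 8.97% and 1.81% of all genes. A match describes letters in a window and does not show binding, and a window without one says nothing of sites farther away.

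**Figure D1:**
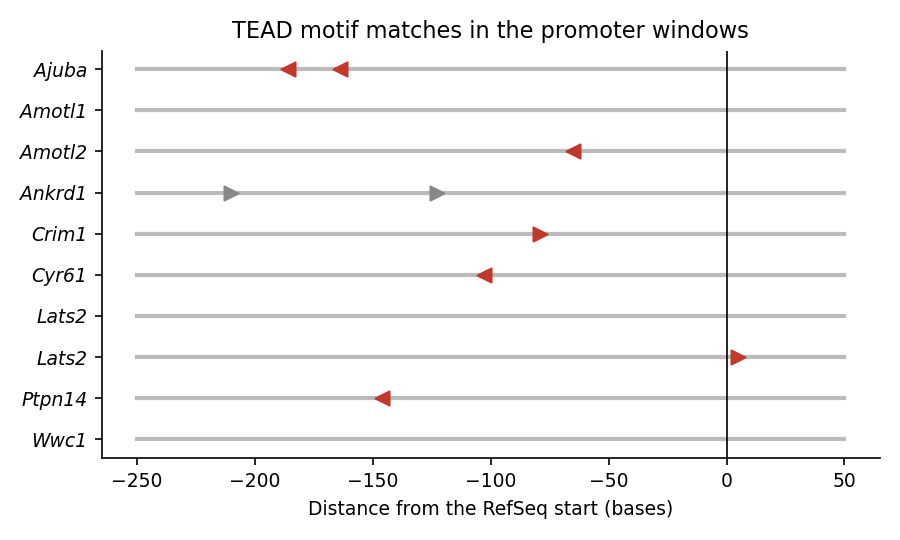
TEAD hexamer matches in the RefSeq promoter windows of the members, one line per annotated start (Lats2 has 2), by distance in bases from the start (vertical line). Triangles pointing left mark CATTCC and those pointing right GGAATG on the coding strand; Ankrd1, in grey, has matches but was not in the expression table, and Amotl1 and Wwc1 show none.

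Levels are the authors' FPKM values, which count the fragments of a gene per unit of gene length and of library size, so that genes can be compared with each other. With 1 library a group there was no replicate check, and no test was made. The libraries corresponded to totals of 10186924 reads (Scramble control) and 10177185 reads (Cdk14-sh). Intervals in parentheses are exact 95% intervals that cover counting error only, with 2 reads taken as 1 fragment. They compare these 2 libraries, not the 2 conditions. Cdk14 itself was at 2.06 FPKM in Scramble control and 0.713 in Cdk14-sh, 2.90-fold lower (2.18 to 3.85). With 1 FPKM added to both values its log2 ratio was -0.84, short of a 2-fold difference. On that scale, among 500 genes of similar abundance, 287 differed less than Cdk14 and 36.4% differed by at least 2-fold. A difference of this size was therefore common at its level. In bulk RNA, fewer cells of a type and less RNA per cell cannot be told apart.

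The secreted members stood far above the rest of the panel. Cyr61 (Ccn1, ENSMUSG00000028195; chromosome 3, 145646976 to 145649981, minus strand, GRCm38) encodes a matricellular protein that binds integrins. It was at 344 FPKM in Scramble control and 548 FPKM in Cdk14-sh, 1.59-fold higher (1.53 to 1.66), from 7073 and 11262 reads. Its place among all 15239 genes went from 125 to 70 in descending order of FPKM. Ctgf (Ccn2, ENSMUSG00000019997; chromosome 10, 24595442 to 24598683, plus strand) encodes connective tissue growth factor, the closest relative of Cyr61 in the panel. It was at 259 FPKM in Scramble control and 234 FPKM in Cdk14-sh, 1.10-fold lower (1.05 to 1.16), at places 188 and 244. The best-known pair of YAP targets thus differed in direction between these libraries, though Ctgf was nearly level. Cyr61 was the higher of them in both. For Ctgf, 23.2% of exonic bases also belong to Gm15270 on the opposite strand (29.3 and 35.0 FPKM), and the strand setting of the counting is unknown here. Crim1 (ENSMUSG00000024074; chromosome 17, 78200248 to 78376592, plus strand) encodes a membrane protein with cysteine-rich repeats that binds BMPs. It was at 18.5 FPKM in Scramble control and 12.0 FPKM in Cdk14-sh, 1.54-fold lower (1.35 to 1.76), which was the lowest ratio of the panel.

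**Figure D2:**
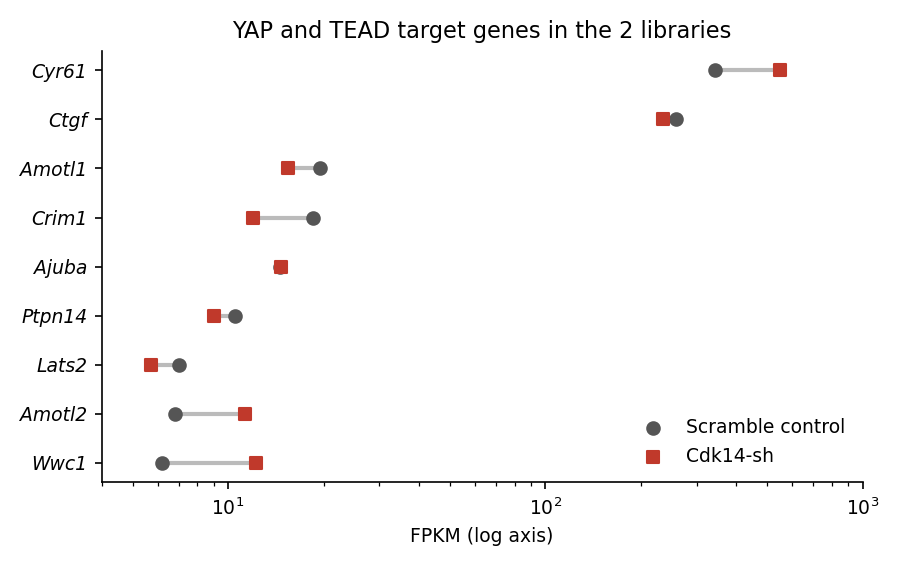
FPKM (log axis) of the 9 listed members in Scramble control (grey circles) and Cdk14-sh (red squares), 1 library each. Cyr61 and Ctgf lie above 200 FPKM in both libraries, and the other 7 genes lie between 5.71 and 19.6 FPKM.

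The remaining members encode cytoplasmic and junctional proteins, most of them inhibitors of YAP. The angiomotin-like genes encode scaffolds that bind YAP and retain it at junctions and actin fibres. Amotl2 (ENSMUSG00000032531; chromosome 9, 102716672 to 102733418, plus strand) was at 6.82 FPKM in Scramble control and 11.3 FPKM in Cdk14-sh, 1.66-fold higher (1.40 to 1.97). Amotl1 (ENSMUSG00000013076; chromosome 9, 14541966 to 14645056, minus strand) was at 19.6 FPKM and 15.4 FPKM, 1.27-fold lower (1.15 to 1.39). The angiomotin-like genes thus lay on opposite sides of equality, and the gap between them was narrower in Cdk14-sh.

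Wwc1 (ENSMUSG00000018849; chromosome 11, 35838400 to 35980527, minus strand) encodes KIBRA, a WW-domain protein that promotes LATS activation. It was at 6.19 FPKM in Scramble control and 12.3 FPKM in Cdk14-sh, 1.98-fold higher (1.63 to 2.41), from 313 and 619 reads. That was the highest ratio of the panel, and its interval includes 2-fold. Lats2 (ENSMUSG00000021959; chromosome 14, 57689662 to 57758388, minus strand), a kinase that phosphorylates YAP and TAZ, was at 7.02 FPKM and 5.71 FPKM, 1.23-fold lower (1.01 to 1.48). Because 42.4% of its exonic bases overlap Gm49361 on the same strand, which the table does not list, its value is uncertain. Ptpn14 (ENSMUSG00000026604; chromosome 1, 189728268 to 189876695, plus strand), a phosphatase that binds YAP and restrains it, was at 10.5 FPKM and 9.03 FPKM, 1.17-fold lower (1.05 to 1.30). Ajuba (ENSMUSG00000022178; chromosome 14, 54567472 to 54577558, minus strand) encodes a LIM protein that binds LATS kinases and limits their action. It was at 14.5 FPKM in Scramble control and 14.6 FPKM in Cdk14-sh, a ratio of 1.01 (0.849 to 1.20). Of the 9 members, 3 were higher in Cdk14-sh beyond counting error (Wwc1, Amotl2 and Cyr61), 5 were lower beyond it and 1 (Ajuba) was not distinguishable at this depth. The share of all genes beyond counting error was not computed, so these counts do not set the panel apart from other genes.

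The order of the members changed below Ctgf. In Scramble control Wwc1, Amotl2 and Lats2 had the lowest levels with overlapping counting intervals, followed by Ptpn14, Ajuba, Crim1 and Amotl1, of which Crim1 and Amotl1 overlapped. In Cdk14-sh Lats2 was lowest and Ptpn14 next, each apart from its neighbour above, while Amotl2, Crim1, Wwc1, Ajuba and Amotl1 followed with each overlapping the next. The 7 genes other than Cyr61 and Ctgf summed to 83.2 FPKM in Scramble control and 80.4 FPKM in Cdk14-sh. The sum over all 9 was 1.26-fold higher in Cdk14-sh (863 FPKM against 686). Cyr61 and Ctgf made up 87.9% of that sum in Scramble control and 90.7% in Cdk14-sh.

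The panel's differences were set beside those of the whole transcriptome. Log2 ratios were taken with 1 FPKM added to both values, which makes the differences of low genes look smaller. On this scale the members ranged from -0.58 (Crim1) to 0.88 (Wwc1). None of the 9 was at least 2-fold higher or lower, where 27.8% of the 12830 measured genes (mean of both libraries 1 FPKM or more) were (14.2% higher and 13.5% lower). At a limit of 1.5-fold, 3 members were higher and none lower, beside 25.2% and 24.5% of all measured genes (49.7% in either direction). Crim1, 1.54-fold lower without the added FPKM, came just short of that limit with it, and passed it with 0.1 FPKM added (-0.62) and under each of 4 rescalings (-0.59 to -0.64). The median log2 ratio of the members was -0.14, beside 0.02 for all measured genes. The median absolute log2 ratio was 0.32 in the panel and 0.58 over all measured genes, which include genes of lower level than any member. Among the 500 genes nearest to each member in mean FPKM, 374 had a smaller absolute log2 ratio than Cyr61 and 322 than Wwc1. The count was 274 for Crim1, 273 for Amotl2, 155 for Amotl1, 102 for Ptpn14, 92 for Lats2, 82 for Ctgf and 3 for Ajuba. Genes as abundant as Cyr61 scattered less (SD of log2 ratios 0.68) than those as abundant as Wwc1 (SD 1.09), and Cyr61 had the smaller log2 ratio of 0.67. All 9 members were above 5 FPKM in both libraries, so the filter on low values removed none of the listed members.

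**Figure D3:**
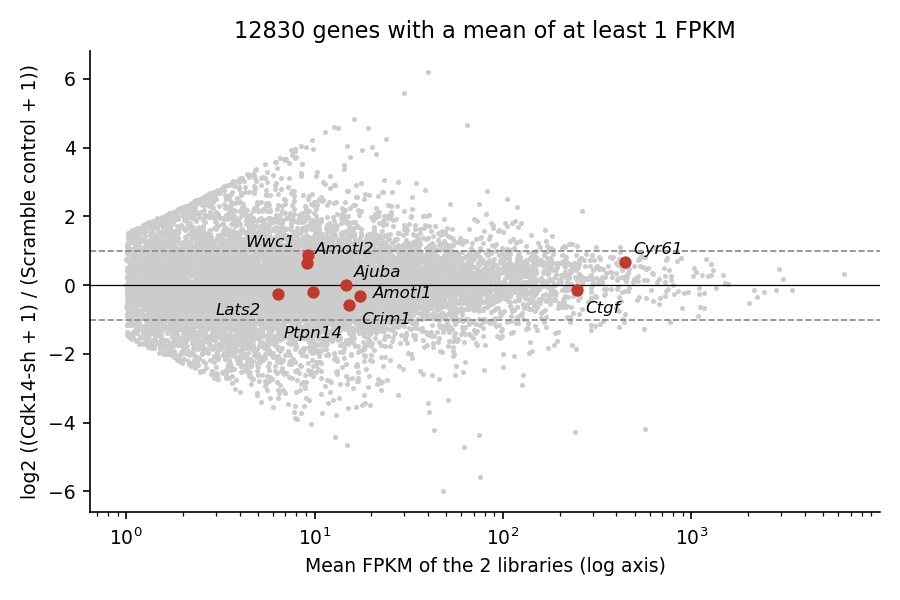
Log2 ratio (Cdk14-sh over Scramble control, 1 FPKM added to each) against mean FPKM (log axis) for the 12830 measured genes, with the 9 members in red and dashed lines at 2-fold. All 9 members lie between the dashed lines, from -0.58 for Crim1 to 0.88 for Wwc1.

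Related genes within one library share its scaling, so ratios between them do not depend on how the libraries were normalised. The pairs were chosen with the values known, and the intervals are exact conditional 95% intervals of the change, for counting error only. The Cyr61 to Ctgf ratio was 1.33 in Scramble control and 2.34 in Cdk14-sh, a change of 1.76-fold (1.65 to 1.87). The Amotl2 to Amotl1 ratio was 0.349 and 0.733, a change of 2.10-fold (1.72 to 2.55). Amot, which encodes angiomotin itself, was at 0.0717 and 0.0560 of Amotl1, with an interval of the change from 0.499 to 1.21 that includes 1. Each of these pairs apart from Amot to Amotl1 was unequal in its change beyond counting error.

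The kinase and scaffold relatives of the members diverged as well. Lats1, the other LATS kinase gene, was at 10.1 FPKM in Scramble control and 19.4 FPKM in Cdk14-sh, so that the Lats1 to Lats2 ratio went from 1.44 to 3.40, a change of 2.36-fold (1.87 to 2.96). Wwc2, the paralogue of Wwc1, was at 7.42 and 5.01 FPKM, and the Wwc1 to Wwc2 ratio went from 0.834 to 2.45, a change of 2.93-fold (2.30 to 3.72). Wwc1 was therefore the lower of the WWC pair in Scramble control and the higher in Cdk14-sh, whereas Lats1 was the higher LATS gene in both libraries. The phosphatase gene Ptpn21 was at 5.58 and 3.25 FPKM, and the Ptpn14 to Ptpn21 ratio went from 1.89 to 2.78 (change 1.47-fold, 1.14 to 1.88). Among the Ajuba-family LIM genes, Limd1 was at 10.2 and 6.53 FPKM and Wtip at 2.14 and 4.29 FPKM on either side of the nearly equal Ajuba. Members of a paralogue group thus did not share a direction in the LATS, WWC, angiomotin-like and Ajuba groups.

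The coactivators and the most abundant TEAD factor were lower in Cdk14-sh than in Scramble control. Yap1 was at 25.4 FPKM in Scramble control and 12.2 FPKM in Cdk14-sh, 2.08-fold lower (1.88 to 2.30). Wwtr1, which encodes TAZ, was at 55.4 and 29.6 FPKM, 1.87-fold lower (1.71 to 2.05). The Wwtr1 to Yap1 ratio was 2.18 in Scramble control and 2.43 in Cdk14-sh, a change within counting error (0.970 to 1.28). Tead1 was at 11.8 and 4.77 FPKM, 2.48-fold lower (2.18 to 2.83). The other TEAD genes were near 1 FPKM: Tead4 at 1.96 and 1.20 FPKM, Tead2 at 0.943 and 1.31 FPKM and Tead3 at 0.848 and 1.09 FPKM, each with an interval of the ratio that includes 1. Vgll4, a TEAD-binding repressor that competes with YAP, was at 18.9 and 11.9 FPKM, 1.59-fold lower (1.38 to 1.83), and Vgll3 was at 0.325 and 0.296 FPKM. Of the 10 genes in this list 8 were listed and 6 measured, of which Tead1 alone passed the 2-fold limit with 1 FPKM added (16.7%, beside 27.8% of all genes). Yap1, 2.08-fold lower without the added FPKM, came just short of the limit with it. The list's median was -0.75 (-0.53 without the filter and -0.94 with it at 5 FPKM), beside -0.14 for the target panel.

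**Figure D4:**
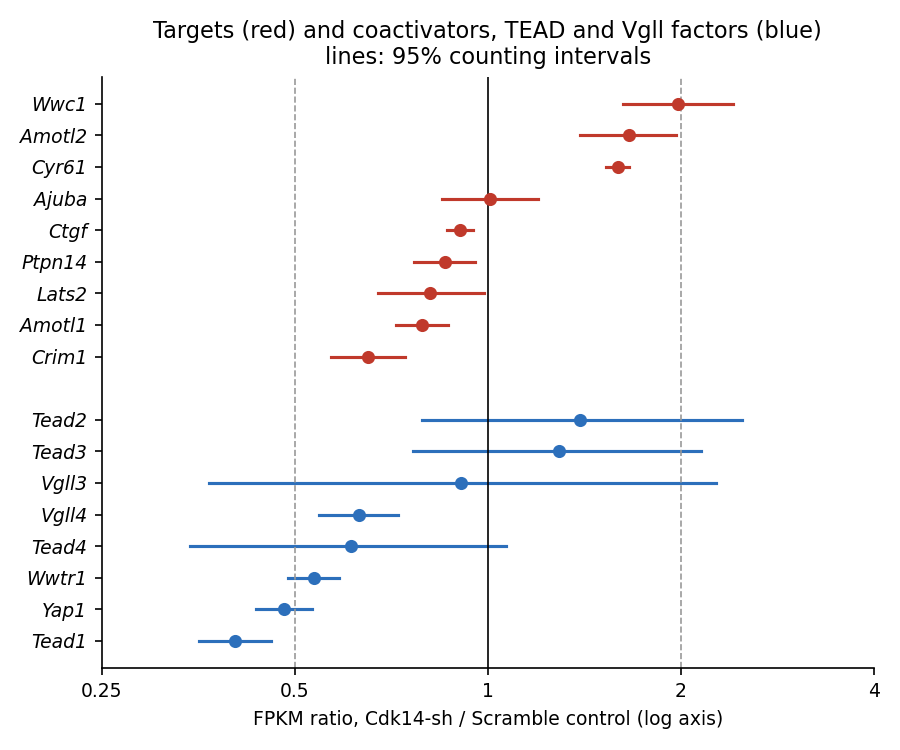
Ratio of FPKM in Cdk14-sh to that in Scramble control (log axis) with 95% counting intervals, for the target genes (red) and for the coactivator, TEAD and Vgll genes (blue); dashed lines mark 2-fold. Yap1, Wwtr1 and Tead1 lie at 0.481, 0.535 and 0.403, below all 9 targets, of which Crim1 is lowest at 0.651.

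The genes of the kinase core were mixed. Of 11 genes 10 were measured, with a median log2 ratio of -0.01, 5 above 0 and 5 below. Stk4, which encodes the kinase MST1, was at 2.65 FPKM in Scramble control and 7.95 in Cdk14-sh (interval of the ratio 2.32 to 3.92) and was the only one of the 10 past 2-fold (10%, beside 27.8% of all genes). Lats1 and the LATS cofactor gene Mob1a followed, the latter at 23.8 and 31.1 FPKM. At the other end, the MST adaptor Sav1 was at 5.52 and 2.84 FPKM, 1.94-fold lower (1.47 to 2.60; 25.4% of its exonic bases overlap Atl1 on the opposite strand). Nf2, which encodes the membrane-linked activator Merlin, was at 9.35 and 6.06 FPKM, and the upstream kinase gene Taok2 at 1.45 and 0.781 FPKM. Taok3, whose mean was below 1 FPKM, was at 0.0176 FPKM in Scramble control (2 reads) and 1.78 FPKM in Cdk14-sh (202 reads), a ratio of 101 (17.7 to 4032).

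Upstream regulators at junctions and in polarity complexes had a median log2 ratio of -0.29 over all 19 genes, and 3 of them passed the 2-fold limit (15.8%, beside 27.8% of all genes), 2 upwards and 1 downwards. The polarity genes Llgl1 (2.42 FPKM in Scramble control and 9.14 in Cdk14-sh, 3.77-fold higher, 2.82 to 5.10) and Crb3 (11.3 and 28.6 FPKM, 2.54-fold higher, 1.98 to 3.27) were the highest, followed by Wtip. Toward the low end were the tight junction scaffold Tjp1 (16.6 and 9.99 FPKM, 1.66-fold lower, 1.47 to 1.89) and Ptpn21. The list therefore had no common direction, with 8 genes above 0 and 11 below.

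A further 15 YAP target genes from a published signature, which also holds 7 of the 10 panel genes, were compared as a second set. Of these 14 were listed and 12 measured, with a median log2 ratio of 0.02. Past the 2-fold limit were 2 upwards and 2 downwards (33.3%, beside 27.8% of all genes). Nt5e, the ecto-nucleotidase CD73, was at 7.78 FPKM in Scramble control and 1.01 in Cdk14-sh, 7.74-fold lower (5.64 to 10.9). Axl, a receptor tyrosine kinase, was at 88.1 and 20.3 FPKM, 4.34-fold lower (3.95 to 4.79). Gadd45a, a stress-induced gene, was at 127 and 71.4 FPKM. These 3 were the lowest of the set, and Axl was its most abundant gene past 2-fold. On the other side, Fjx1 was at 1.06 and 5.64 FPKM, 5.30-fold higher (3.13 to 9.50), the kinase gene Nuak2 at 0.902 and 3.36 FPKM, 3.73-fold higher (2.19 to 6.66), and the membrane repair gene Myof at 2.71 and 5.81 FPKM. Like the panel, the set had members on both sides of 0, and its log2 ratios reached from -2.13 to 1.69.

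**Figure D5:**
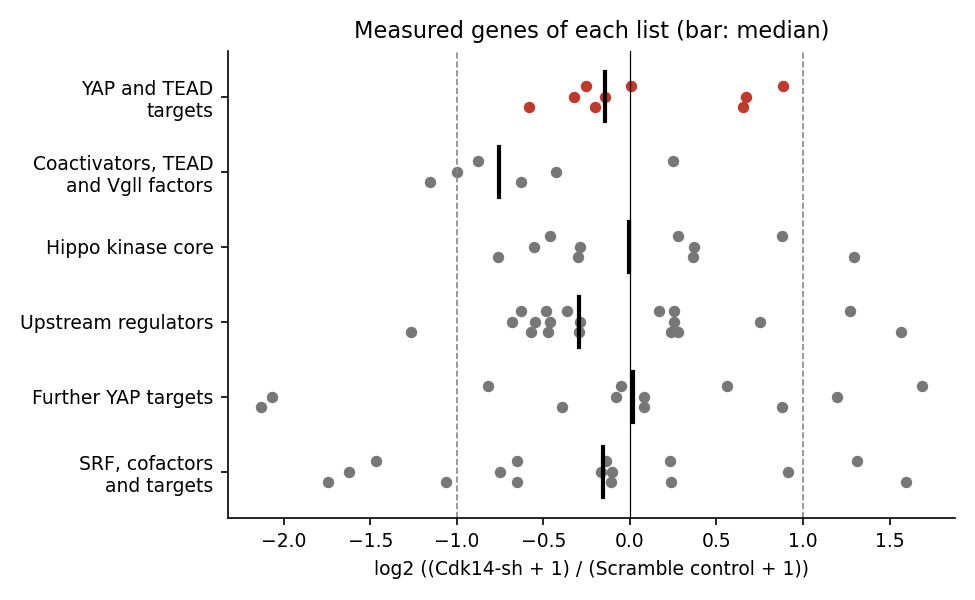
Log2 ratio (Cdk14-sh over Scramble control, 1 FPKM added to each) of every measured gene in the target panel (red) and in 5 other lists (grey), with the median of each list as a black bar and dashed lines at 2-fold. The panel lies within the dashed lines, the coactivator list has the lowest median at -0.75, and the further YAP targets reach from -2.13 to 1.69.

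Within the CCN family of matricellular genes, 3 of 6 were listed. Beside Cyr61 and Ctgf, Wisp1 (Ccn4) was at 1.49 FPKM in Scramble control and 6.18 in Cdk14-sh, 4.13-fold higher (2.96 to 5.99), at a level far below both. Of the relatives of Ankrd1, only Ankrd23 was listed, at 0.564 and 0.0364 FPKM, below the filter. Cyr61, Ctgf and Ankrd1 are also known as targets of SRF, a factor that responds to actin and growth signals, so SRF genes were compared as a list. All 16 were measured, with a median log2 ratio of -0.15, and 6 passed the 2-fold limit (37.5%, beside 27.8% of all genes), 4 downwards and 2 upwards. With the filter raised to a mean of 5 FPKM the median became -0.41. The lowest were the contractile genes Cnn1 (359 and 107 FPKM) and Tagln (137 and 49.0 FPKM; 67.9% of its exonic bases overlap genes of the opposite strand) and the immediate early gene Egr2 (86.5 and 27.4 FPKM). The highest were the SRF cofactor Mkl1 (1.73 and 7.26 FPKM), Egr3 (2.29 and 7.15 FPKM) and Srf itself (3.53 and 7.51 FPKM). Of the 16 genes 5 were above 0, as Cyr61 was, and 11 were below, as the nearly level Ctgf was.

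Endothelial cells, pericytes and fibroblasts also express Cyr61, Ctgf, Amotl2 and Crim1, and markers of these cells differed between the libraries. The counts that follow stand beside 13.5% of all measured genes at least 2-fold lower and 14.2% higher. Of 13 endothelial markers 12 were listed (Kdr was not), 8 of 11 measured were at least 2-fold lower, and their summed level was 256 FPKM in Scramble control and 62.3 in Cdk14-sh. Pericyte markers, 5 of 8 listed without Pdgfrb, Cspg4 and Kcnj8, summed to 127 and 60.0 FPKM, with 3 of 4 measured at least 2-fold lower and 1 higher. Fibroblast markers, 6 of 9 listed without Lum, Pdgfra and Dpt, summed to 299 and 121 FPKM, with 2 of 6 at least 2-fold lower and 3 higher. The 2 lower ones, Gsn (185 and 43.8 FPKM) and Dcn (104 and 41.2 FPKM), made up most of that sum, and the list's median log2 ratio was 1.02. Immune markers, 6 of 9 listed without Lyz2, Tyrobp and Cd52, summed to 82.2 and 356 FPKM, with 4 of 5 measured at least 2-fold higher. Those 4 were Cd74, H2-Aa, H2-Ab1 and Csf1r. Coro1a (2.61 and 1.06 FPKM) and Ptprc (0.482 and 0.247 FPKM, below the filter) were lower. Luminal markers, 11 of 12 listed without Elf5, summed to 1603 and 892 FPKM, with 3 of 7 measured at least 2-fold lower and 1 higher. Those below the filter were higher in Cdk14-sh: Esr1 (0.0862 and 1.55 FPKM), Prlr (0.154 and 1.77 FPKM), Pgr (0.0115 and 0.391 FPKM) and Kit (0.330 and 0.750 FPKM). Basal markers, 12 of 12 listed, summed to 3410 and 2503 FPKM, with 4 at least 2-fold lower and 1 higher. The part of these cell type differences in the levels of the target genes was not tested.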

How the data were processed

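Messenger RNA was measured in 2 libraries, 1 per group, from the labels' hairpin field. A stranded mRNA kit was used on total RNA, per the labels' protocols. The submitters' processing notes name the builds mm8 and GRCm38, Bowtie 0.12.2, featureCounts and Subread 1.5.1, with no role given. The authors deposited FPKM values for 15239 genes, with no gene at 0. A gene that is not listed may therefore have been at 0 in 1 or both libraries, and all counts and sums here cover listed genes only. The sources used here do not give how strand, overlaps and multiply mapped reads were treated.

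Cyr61 and Ctgf are the symbols in the table for Ccn1 and Ccn2, and where rows shared a symbol the highest was used. Reads were recovered from FPKM and union exon lengths of GENCODE M21 (GRCm38). Lengths matched for 15195 genes, and in 79.2% of these both values were multiples of 0.5 reads (tolerance 0.01 reads). This held for 6 of the 9 members, and the reads and intervals of Amotl1, Lats2 and Ajuba are approximate. Recovered reads came to 112% of each total. That 2 reads make 1 fragment was assumed, and the commonest low value was set to 2 reads. Whole read numbers were then even in 70.7% of Scramble control and 67.2% of Cdk14-sh values. That evenness follows in part from the assumption and does not check it. The read totals and counting intervals rest on it. Fold intervals are Clopper-Pearson (SciPy 1.17.1) at 95%, and those of levels are exact Poisson. Log2 ratios use a pseudocount of 1 FPKM, and the 12830 genes whose mean reached 1 FPKM are called measured. The arithmetic was tested on simulated data.

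The members, lists and pairs were chosen with earlier results of these data known. Named are all members, Cdk14, every listed coactivator, TEAD and Vgll gene, the up to 3 highest and 3 lowest measured genes of each other list, relatives of members, and marker examples. Other names were chosen after their values were seen, and 1 gene that the rule names is not reported here. Genes of most like pattern were not sought, since 2 libraries give 1 ratio a gene. A planned search for YAP-binding motifs in proteins was not made. As alternatives, the pseudocount was set to 0.1 or 5, the Cdk14-sh values were rescaled in 4 ways, the filter was dropped or raised to 5 FPKM, the fold limit was set to 1.5 or 4, the mean replaced the members' median, and rows sharing a symbol were summed.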

Additional observations from a re-analysis of the deposited data

How the results depend on the processing

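Each group had 1 library, so leaving out a replicate would leave no comparison, and no value here separates the hairpin from the library. No paired analysis was possible because each group has 1 library and no test was made. Across 7 alternatives of pseudocount, scaling and shared symbols, every member except Ajuba kept its sign. Ajuba ranged from -0.05 to 0.01, and Wwc1 from 0.62 to 0.97. Of the 63 resulting member values 1 left its counting interval, Cyr61 at 0.60 with equal sums of FPKM. The 4 scalings moved the median log2 ratio of all measured genes by at most 0.06 in size (-0.06 with equal sums).

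No member was at least 2-fold higher or lower under any of the alternatives that kept that limit, and 3 were higher at 1.5-fold. The median of the members, -0.14, became 0.079 when the mean replaced it, so the panel has no single direction. The count of all genes at least 2-fold higher (1828) and lower (1735) became 677 and 612 with a pseudocount of 5, and 946 and 909 with the filter at 5 FPKM. It became 3239 and 3141 at a limit of 1.5-fold, and 419 and 345 at 4-fold. Of 64 other measured genes in the pathway lists, 8 were higher and 8 lower, beside 27.8% of all measured genes in either direction. With a pseudocount of 5, 1 was higher and 7 lower, beside 10% of all measured genes. With the filter at 5 FPKM, 3 of 45 were higher and 7 lower, beside 23%. At 1.5-fold there were 12 and 18, beside 49.7%, and at 4-fold 0 and 2, beside 5.95%. Of 53 medians of the other lists under the alternatives, 6 left the counting interval of their middle genes. The kinase core median (-0.01) became 0.28 without a filter and with it at 5 FPKM, and that of the coactivators (-0.75) became -0.53 and -0.94. The SRF median (-0.15) became -0.41 with the filter at 5 FPKM, and the CCN median (0.67) 0.60 with equal sums.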
